A study of Mus musculus with 2 samples.

Results

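The 33 genes described here form a hypoxia and glycolysis module: the enzymes and transporters that take up glucose and turn it into lactate, and genes known to be induced when oxygen is low. They were taken by symbol from a fixed list, and all 33 were found among the 32432 genes of the count tables. The list holds 17 genes of glucose uptake, glycolysis, pyruvate and lactate (Slc2a1, Hk1, Hk2, Gpi1, Pfkl, Pfkp, Pfkfb3, Aldoa, Tpi1, Gapdh, Pgk1, Pgam1, Eno1, Pkm, Ldha, Slc16a3, Pdk1). The other 16 act in mitochondria (Bnip3, Bnip3l, Higd1a, Ak4), in oxygen sensing, chromatin and transcription (Egln3, Kdm3a, Mxi1, Ankrd37), in secretion, lipid storage and stress (Vegfa, Adm, Ero1a, P4ha1, Ndrg1, Hilpda, Ddit4) or in glycogen synthesis (Gys1).

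As background, cells sense oxygen through prolyl hydroxylases such as EGLN3, which mark the alpha subunits of hypoxia-inducible factors (HIF) for degradation by the VHL complex. When oxygen falls, HIF accumulates, binds short DNA motifs near its target genes and raises the transcription of glucose transporters, glycolytic enzymes, mitophagy receptors and angiogenic factors. In solid tumours, macrophages that carry a hypoxic programme often also express arginase 1 (Arg1), and activated T cells use many of the same glycolytic enzymes during proliferation.

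The leukocytes came from B16-F10 melanomas grown in the skin of mice. Male mice aged 8 to 12 weeks carried the tamoxifen-inducible Cre recombinase R26CreERT2 on 1 allele (ki/wt) in both groups, so recombination was possible in every cell type. The iKO group was Trex1 fl/fl, and the control group was Trex1 wt/fl, so the controls were heterozygous for the conditional allele and also received tamoxifen. Trex1 encodes a DNA exonuclease that degrades DNA in the cytosol. Both groups were given 1000 tumour cells in Matrigel in both legs, 1 mg of tamoxifen on 3 days from day 5, and had their tumours taken on day 14. Living CD45+ cells were sorted, marked with hashtag antibodies and sequenced from the 3′ ends of transcripts (10x Genomics), with 4 hashtagged samples per genotype (iKO 1 to 4 and control 1 to 4). Each genotype was 1 pool, and no comparison between genotypes can be told apart from one between pools. Nothing says whether each hashtagged sample was a separate mouse, and p-values therefore measure the spread between these samples.

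The iKO samples held 1362 to 6117 cell barcodes and 19370674 to 96457227 unique molecular identifiers (UMIs), and the control samples held 1828 to 3016 barcodes and 17111065 to 33319752 UMIs. Barcodes shared between matrices numbered 0 within a pool and 0 to 6 per pair between pools. Only 2 Trex1 UMIs were found in all samples, so the loss of Trex1 cannot be checked in these counts. Cells were gated on UMIs of marker genes, and no member was a gate gene. The monocyte/macrophage gate held 5462 iKO and 2600 control cells. It was split into Arg1-positive macrophages (384 and 702 cells), Cxcl9/Cxcl10-positive macrophages (1701 and 253), C1q-positive macrophages (813 and 533) and Vcan/Chil3-positive monocytes (1353 and 786). Neutrophils (301 and 1004), CD8 T cells (3901 and 958) and CD4 T cells (564 and 650) were gated beside them. Levels below are UMIs scaled to a total of 1000000 in each gate and sample (CPM). UMIs from 3′ ends are not compared between genes.

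Promoter sequences were searched for the core of the HIF motif. RefSeq promoters (GRCm38.p6, 250 bases before to 50 bases after a start, 300 in all) were listed for 31 of the 33 members, and Bnip3l and Ndrg1 were not listed. The core was taken as ACGTG or GCGTG on either strand, so the E-box CACGTG holds a match on each strand. Of the 31 members, 28 had a match at 1 or more starts, and so did 46.7% of all listed genes. Over starts, 38 of 49 member starts (77.6%) held a match, against 43.8% of all 32851 listed starts. Member starts were richer in G and C (median 64.7% against 52.7%), and among all starts at or above 64.7% the share with a match was 71.8%. The 77.6% of the members covers starts on both sides of 64.7%, so these shares are not matched for G and C. The part of G and C in the share of the members was not tested. A match is a description of letters, not a measured site. Below, 6 promoters are given 5′ to 3′ on the gene's strand with the matches in capitals, chosen because their genes recur in the results and serve different functions: a mitophagy receptor (Bnip3, chr7:138909457-138909756, minus strand), lactate production (Ldha, first listed start, chr7:46845554-46845853, plus strand), a step of glycolysis that yields ATP (Pgk1, chrX:106186850-106187149, plus strand), protein oxidation (Ero1a, chr14:45318523-45318822, minus strand), lipid storage (Hilpda, second listed start, chr6:29272376-29272675, plus strand) and oxygen sensing (Egln3, chr12:54203825-54204124, minus strand).
Bnip3: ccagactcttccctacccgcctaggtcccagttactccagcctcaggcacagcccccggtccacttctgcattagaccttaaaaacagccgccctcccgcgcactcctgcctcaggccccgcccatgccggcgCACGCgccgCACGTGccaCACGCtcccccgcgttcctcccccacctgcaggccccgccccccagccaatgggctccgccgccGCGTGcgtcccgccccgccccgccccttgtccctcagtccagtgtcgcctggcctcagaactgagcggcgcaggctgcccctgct
Ldha: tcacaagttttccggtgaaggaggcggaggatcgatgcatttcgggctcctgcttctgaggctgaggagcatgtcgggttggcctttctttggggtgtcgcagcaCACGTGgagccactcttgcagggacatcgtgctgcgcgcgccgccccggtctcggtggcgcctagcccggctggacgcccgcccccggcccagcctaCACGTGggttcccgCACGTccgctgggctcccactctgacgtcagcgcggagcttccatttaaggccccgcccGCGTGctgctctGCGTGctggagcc
Pgk1: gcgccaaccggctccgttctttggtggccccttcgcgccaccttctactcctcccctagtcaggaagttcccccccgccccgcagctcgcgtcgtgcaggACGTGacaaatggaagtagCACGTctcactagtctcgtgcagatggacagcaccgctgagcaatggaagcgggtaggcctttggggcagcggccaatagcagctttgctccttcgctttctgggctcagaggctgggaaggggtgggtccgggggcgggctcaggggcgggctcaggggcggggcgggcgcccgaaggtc
Ero1a: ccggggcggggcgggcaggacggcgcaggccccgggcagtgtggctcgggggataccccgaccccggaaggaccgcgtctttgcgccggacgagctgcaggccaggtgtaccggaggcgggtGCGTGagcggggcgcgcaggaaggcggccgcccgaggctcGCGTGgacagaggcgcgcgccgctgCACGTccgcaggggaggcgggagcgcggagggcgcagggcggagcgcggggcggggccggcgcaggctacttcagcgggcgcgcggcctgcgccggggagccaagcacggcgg
Hilpda: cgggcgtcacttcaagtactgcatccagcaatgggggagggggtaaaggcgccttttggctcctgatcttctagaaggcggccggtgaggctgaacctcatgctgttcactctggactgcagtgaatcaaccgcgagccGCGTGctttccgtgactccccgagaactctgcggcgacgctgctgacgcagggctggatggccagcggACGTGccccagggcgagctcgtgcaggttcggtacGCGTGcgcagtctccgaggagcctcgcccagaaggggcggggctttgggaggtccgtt
Egln3: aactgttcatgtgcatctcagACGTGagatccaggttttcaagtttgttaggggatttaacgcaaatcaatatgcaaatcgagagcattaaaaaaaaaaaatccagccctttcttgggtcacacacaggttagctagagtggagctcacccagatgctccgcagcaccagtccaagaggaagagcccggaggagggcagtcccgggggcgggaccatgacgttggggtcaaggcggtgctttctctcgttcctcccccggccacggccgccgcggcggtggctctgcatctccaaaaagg
The window of Ldha held 5 marked stretches, 2 of them E-boxes, and that of Bnip3 held 4, 1 of them an E-box. Ero1a and Hilpda had 3 marked stretches each, Pgk1 2 and Egln3 1, with 0 E-boxes. The starts of Ldha and Hilpda that are not shown held fewer, 2 for Ldha and 1 for Hilpda. Vegfa, which also recurs and is not shown, had 2 at its first listed start and 0 at its second.

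Most members were highest in Arg1-positive macrophages or neutrophils. By mean CPM over the 8 samples, 24 of the 33 members had their highest level in Arg1-positive macrophages. Another 8 (Hk2, Pfkp, Pfkfb3, Bnip3l, Egln3, Hilpda, Slc16a3 and Kdm3a) were highest in neutrophils, and Ddit4 was highest in CD4 T cells. The order of these top 2 gates was often within the spread: Egln3 averaged 192 ± 70.5 CPM (SD, n = 8) in Arg1-positive macrophages and 206 ± 97.7 in neutrophils, and Pfkl 126 ± 13.6 and 125 ± 61.2. Hilpda ran from 1487 ± 863 in neutrophils and 1323 ± 351 in Arg1-positive macrophages, through 281 ± 98.0 in monocytes and 212 ± 84.8 in C1q-positive macrophages, to 134 ± 28.8 in CD4 and 82.1 ± 29.0 in CD8 T cells.

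**Figure D1:**
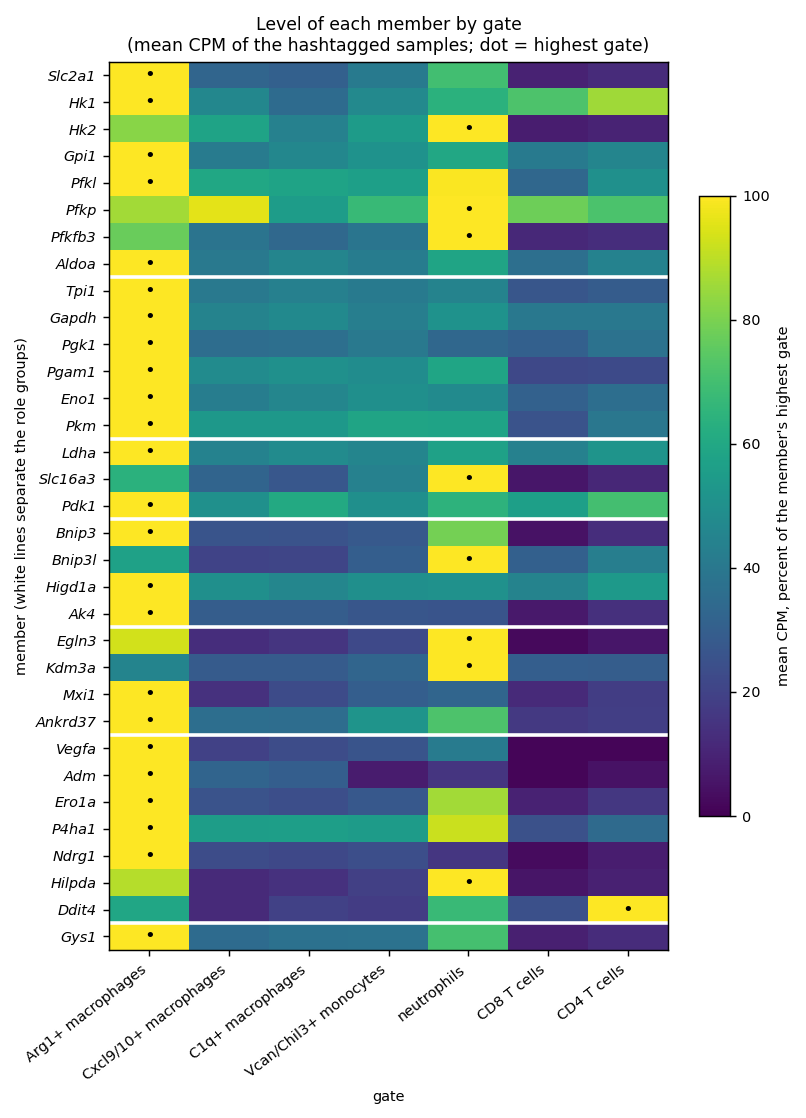
Heat map of the 33 members (vertical axis) in 7 gates (horizontal axis). Colour is the mean CPM over the samples as a percent of the gene's highest gate, and a dot marks that gate: 24 dots lie in Arg1-positive macrophages, 8 in neutrophils and 1 in CD4 T cells.

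Arg1-positive macrophages were compared with C1q-positive macrophages of the same samples, which were below the cutoffs for Arg1 and for the chemokines Cxcl9 and Cxcl10. All 33 members were called higher in Arg1-positive cells (edgeR quasi-likelihood test with sample as a block, adjusted p from 1.66e-11 to 1.05e-05), against 20.9% of the 9582 genes tested. Of the 33, 32 were higher in 8 of 8 samples, and Pfkp was higher in 7. The median log2 difference of the members was 1.49, against -0.04 over all genes tested. The 17 glycolysis genes had a median of 1.33 and the other 16 a median of 1.93.

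Glucose uptake and the first steps of glycolysis rose as a group, 8 of 8. Slc2a1, which encodes the glucose transporter GLUT1, had 457, 339, 323 and 311 CPM in the Arg1-positive macrophages of iKO 1 to 4 and 270, 536, 537 and 333 in those of control 1 to 4. In C1q-positive macrophages it had 175, 126, 67.6 and 65.9 CPM in the iKO samples and 111, 162, 140 and 111 in the controls. The lowest Arg1-positive sample lay above the highest C1q-positive one, and the log2 difference was 1.93 ± 0.10 (SE, adjusted p = 6.14e-10). Hexokinases, which phosphorylate glucose, differed by 1.67 ± 0.13 (Hk1) and 1.13 ± 0.08 (Hk2). Pfkfb3, which makes the activator of phosphofructokinase, differed by 1.45 ± 0.11, Gpi1 by 1.33 ± 0.07 and the aldolase gene Aldoa by 1.35 ± 0.07. The phosphofructokinase genes Pfkl (1.00 ± 0.09) and Pfkp (0.88 ± 0.11) differed less.

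Of the enzymes of lower glycolysis, 6 of 6 rose, between 1.13 ± 0.09 (Pkm, pyruvate kinase) and 1.66 ± 0.08 (Pgk1, phosphoglycerate kinase) on the log2 scale. Pgk1 had 1442, 1620, 1473 and 1409 CPM in Arg1-positive macrophages of the iKO samples and 1471, 1549, 1427 and 1183 in the controls, against 634, 521, 529 and 461 and then 475, 535, 468 and 611 in C1q-positive macrophages. Every Arg1-positive value lay far above every C1q-positive value, with little spread within either set. Ldha, the lactate dehydrogenase subunit that favours lactate, averaged 1788 ± 108 CPM against 861 ± 95.6 (n = 8 each), a log2 difference of 1.27 ± 0.07. Slc16a3, the lactate exporter MCT4, differed by 1.49 ± 0.11, and Pdk1, a kinase that inhibits pyruvate dehydrogenase, by 0.91 ± 0.10.

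Larger differences were found outside glycolysis. Hilpda, which covers lipid droplets and inhibits their lipase, had 1409, 1421, 1034 and 952 CPM in Arg1-positive macrophages of the iKO samples and 1170, 1987, 1583 and 1024 in the controls, against 270, 227, 88.2 and 121 and then 137, 252, 309 and 292 in C1q-positive ones. The 2 sets of values were separated by a wide gap, at a log2 difference of 2.91 ± 0.15 (adjusted p = 4.98e-10). Egln3, the oxygen-dependent prolyl hydroxylase, had 157, 179, 168 and 168 CPM in iKO and 109, 250, 338 and 165 in control Arg1-positive macrophages, and at most 54.6 in any C1q-positive sample (2.88 ± 0.21). Its control values varied more than its iKO values. Ndrg1, a stress-responsive growth regulator, differed by 2.44 ± 0.15 and Vegfa, the vascular growth factor, by 2.40 ± 0.13. Mxi1, a MYC antagonist, differed by 2.37 ± 0.10, and Ero1a, the oxidase that forms disulfide bonds in the endoplasmic reticulum, by 2.33 ± 0.13.

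Bnip3, a receptor for the removal of mitochondria, had 510, 477, 383 and 413 CPM in iKO and 375, 605, 659 and 448 in control Arg1-positive macrophages. Its C1q-positive values, 81.9 to 169 CPM, did not reach them, and the log2 difference of 2.19 ± 0.08 had the smallest adjusted p of the module (1.66e-11). Its relative Bnip3l differed by 1.67 ± 0.09, the mitochondrial adenylate kinase Ak4 by 1.97 ± 0.16 and Higd1a, a small protein of the respiratory chain, by 1.33 ± 0.08. Ddit4, an inhibitor of mTORC1, differed by 1.84 ± 0.10 and Adm, a vasodilator peptide, by 1.89 ± 0.20. Adm was low and uneven, from 7.82 to 95.2 CPM in Arg1-positive macrophages, with control 2 highest. Ankrd37, an ankyrin repeat protein, differed by 1.71 ± 0.10, Gys1, muscle-type glycogen synthase, by 1.66 ± 0.13, and P4ha1, a collagen prolyl hydroxylase subunit, by 1.05 ± 0.09. Kdm3a, a histone H3K9 demethylase, showed the smallest difference of the 33, 0.86 ± 0.10.

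Against Cxcl9/Cxcl10-positive macrophages, whose chemokines are interferon-induced and attract T cells, 32 of 33 members were higher in Arg1-positive cells, each in 8 of 8 samples, against 22.4% of genes called higher. Pfkp was the exception, at -0.00 ± 0.10 (adjusted p = 0.983). Egln3 (3.38 ± 0.25), Hilpda (3.34 ± 0.20), Mxi1 (3.08 ± 0.16), Ddit4 (2.88 ± 0.20) and Vegfa (2.82 ± 0.20) differed most. Slc2a1 differed by 1.77 ± 0.09, Bnip3 by 2.26 ± 0.17, Ero1a by 2.27 ± 0.19, Pgk1 by 1.66 ± 0.10, Ldha by 1.33 ± 0.08 and Hk2 by 0.72 ± 0.10. The member median was 1.47, against -0.01 over all genes.

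**Figure D2:**
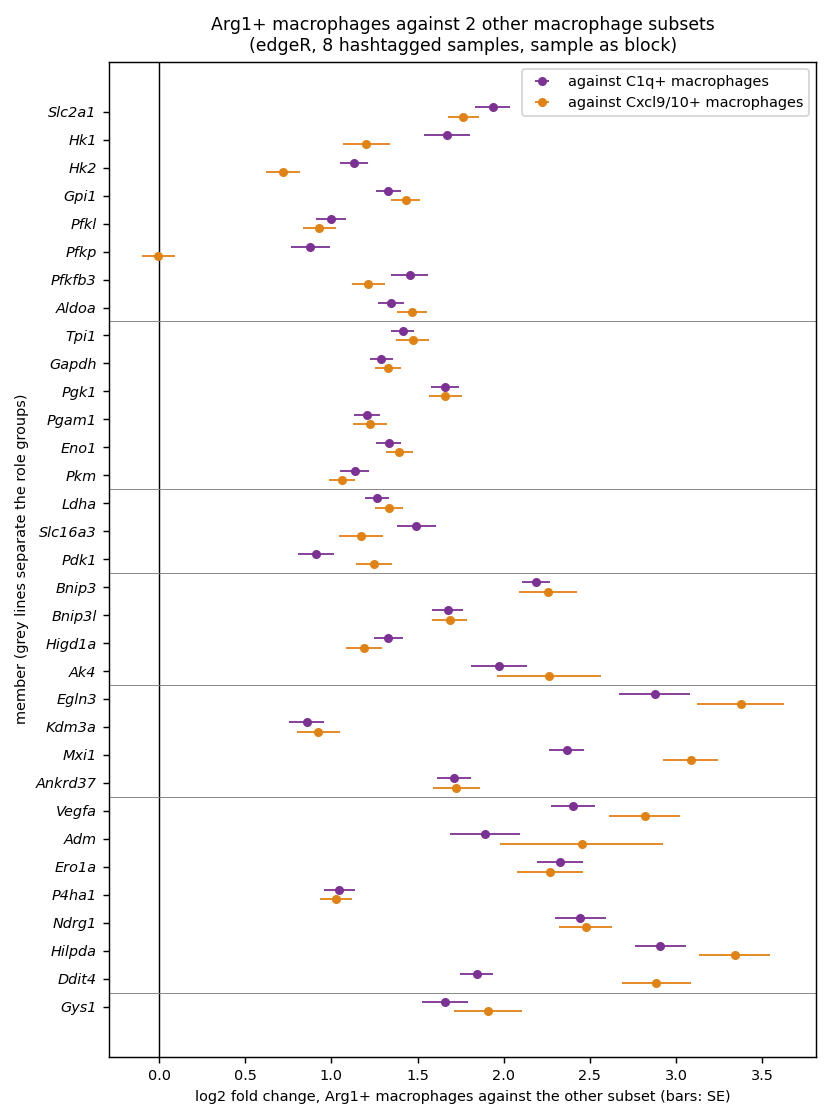
Log2 difference (horizontal axis) of each member (vertical axis) between Arg1-positive macrophages and the C1q-positive and Cxcl9/Cxcl10-positive ones, with bars of 1 SE from edgeR fits over 8 samples. Points lie right of 0 except that of Pfkp against Cxcl9/Cxcl10-positive cells, at -0.00.

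Several marker lists moved with these contrasts, and their part in the results was not tested. Of the 4 genes that dissociation of tissue can induce (Fos, Jun, Hspa1a, Hspa1b), 4 were higher in Arg1-positive macrophages in both contrasts, with summed levels of 3034 to 4705 CPM. The 3 cycling markers (Mki67, Top2a, Stmn1) were lower than in C1q-positive macrophages. They were also lower than in Cxcl9/Cxcl10-positive macrophages, 3 of 3 in each contrast. Of 5 melanoma markers only 1 was tested in either contrast, and it was higher than in Cxcl9/Cxcl10-positive and not called against C1q-positive macrophages (summed 8.85 to 26.6 CPM in Arg1-positive, 6.44 to 20.4 in Cxcl9/Cxcl10-positive and 6.199 to 22.4 in C1q-positive cells). Of 2 endothelial markers tested 1 was higher in both contrasts. Of 6 neutrophil markers tested, 1 was higher and 1 lower than in C1q-positive, and 2 were higher and 1 lower than in Cxcl9/Cxcl10-positive macrophages. The keratinocyte markers Krt5 and Krt14 were at 0. Of 10 monocyte/macrophage markers, which include the C1q genes used for gating, 3 were higher and 6 lower than in C1q-positive macrophages. Against the same cells 2 of 4 monocyte markers were higher, and the 1 tested B cell marker was lower. Median UMIs per cell overlapped, at 12860 to 18331.5 in Arg1-positive and 14478 to 19125.5 in C1q-positive macrophages.

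Among the remaining subsets the members were called about as often as all genes when both directions are counted together. Between Cxcl9/Cxcl10-positive and C1q-positive macrophages, 4 members were called higher and 3 lower of 33, against 22.3% of genes called in either direction. Higher were Pfkp (0.87 ± 0.10), Hk1 (0.42 ± 0.10), Hk2 (0.39 ± 0.12) and Slc16a3 (0.33 ± 0.10), and lower were Ddit4 (-1.08 ± 0.22), Mxi1 (-0.72 ± 0.11) and Pdk1 (-0.34 ± 0.12). Ldha differed by -0.06 ± 0.06 and Pgk1 by 0.00 ± 0.07, which did not pass. Without iKO 4 the count of called members was 4. In Vcan/Chil3-positive monocytes, 12 members were higher and 2 lower than in C1q-positive macrophages, against 43.6% of genes called in either direction. Of the 10386 genes tested, 2231 were called higher and 2295 lower, a more even split than that of the members. Slc16a3 led (0.78 ± 0.09), followed by Egln3 (0.62 ± 0.16), Bnip3l (0.56 ± 0.07), Ankrd37 (0.56 ± 0.09), Mxi1 (0.47 ± 0.10), Slc2a1 (0.46 ± 0.10), Hk1 (0.45 ± 0.08) and Hilpda (0.44 ± 0.15). Adm (-1.74 ± 0.45) and Pdk1 (-0.31 ± 0.10) were lower. Slc2a1 and Hilpda, at 0.46 and 0.44 here, differed by 1.93 and 2.91 between Arg1-positive and C1q-positive cells.

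The members were also read along the Arg1 count itself. The gated cells were divided by Arg1 UMIs per cell into 0, 1 or 2, 3 to 9, and 10 or more. Mean CPM over the 8 samples was higher at each step for 33 of 33 members, against 8.91% of the 11571 genes tested in the gate. Within single samples the order was less regular, with a median of 6 of 8 samples higher at each step, and 28 members with 4 or more such samples. Hilpda went from 211 to 427, 891 and 1367 CPM, rising at each step in 8 of 8 samples. Ldha went from 763 to 1120, 1504 and 1819 CPM (8 of 8 samples), and Vegfa from 75.5 to 164, 271 and 372 (7 of 8). Egln3 went from 34.1 to 195 CPM, Bnip3 from 113 to 491 and Slc2a1 from 127 to 399, each stepwise in 6 of 8 samples. Pdk1, Slc16a3 and Ddit4 were stepwise in 3 samples each and Kdm3a in 1. Pfkp moved least, from 141 to 187 CPM, and stepwise in 1 sample. Median UMIs per cell overlapped between strata (13144 to 15846.5 at 0 UMIs, 13149 to 19181.5 at 10 or more). These strata share samples and are given with no test.

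**Figure D3:**
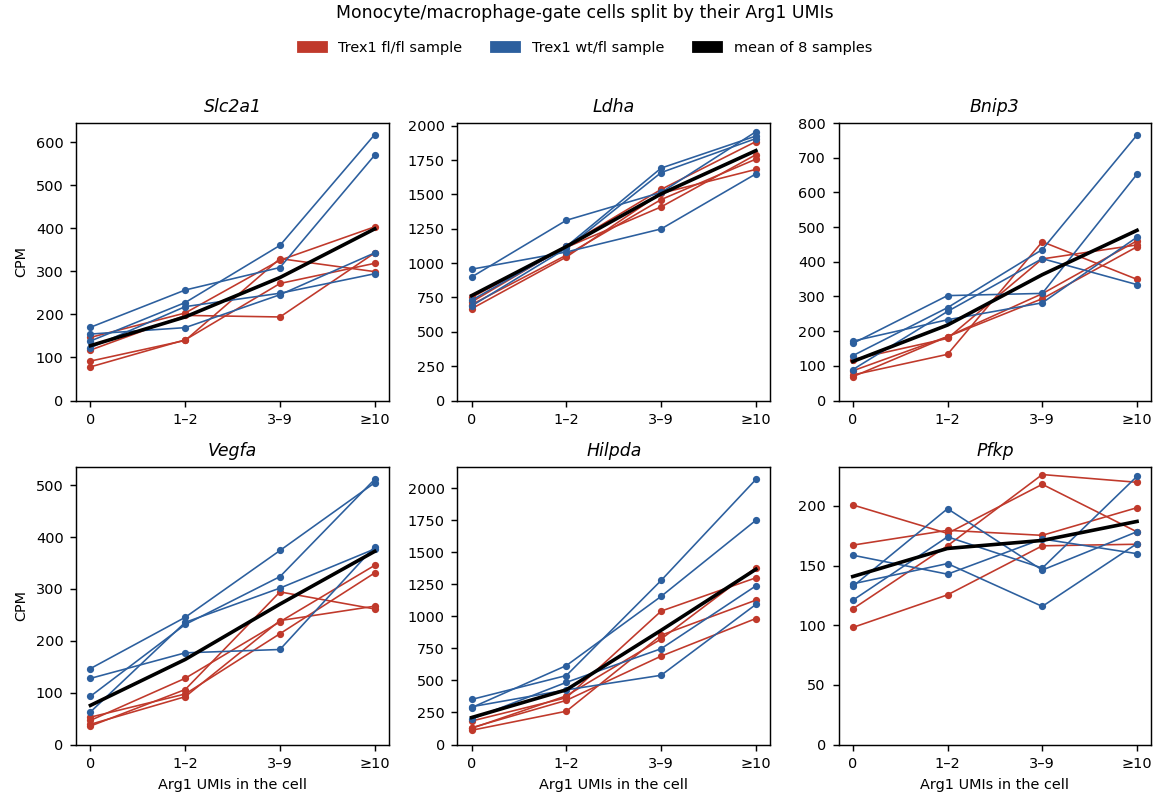
CPM (vertical axes) of 6 members in macrophages with 0, 1 or 2, 3 to 9, and 10 or more Arg1 UMIs (horizontal axes), 1 line per sample and a black line for the mean of 8. Mean Hilpda climbs from 211 to 1367 CPM, while Pfkp stays between 141 and 187.

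The differences were visible as shares of cells with a UMI. After thinning each cell to 2000 UMIs, Hilpda was found in 64.1% ± 5.92 of iKO and 70.7% ± 7.02 of control Arg1-positive macrophages (SD, n = 4 each), against 18.2% and 20.2% of C1q-positive macrophages and 13.3% and 11.5% of CD8 T cells. Unthinned, the same shares in Arg1-positive macrophages were 84.8% and 90.6%. Vegfa was found in 37.9% and 47.1% of thinned Arg1-positive macrophages (69.2% and 78.6% unthinned), against 0.598% and 0.897% of CD8 T cells. Median depth before thinning was 12860 to 18331.5 UMIs in Arg1-positive macrophages and 7845 to 18229.5 in CD8 T cells. Thinning left out 2 iKO Arg1-positive cells, and 14 iKO and 6 control CD8 T cells.

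Arg1-positive macrophages were 13.5% of the gated cells and held 14.4% of the gate's UMIs, but a larger share of the UMIs of each of the 33 members. As means of the 8 samples, weighted equally, the member shares ran from 20.1% ± 12.2 (Pfkp) to 47.4% ± 14.7 (Hilpda) and 47.3% ± 13.4 (Egln3; SD, n = 8), with a median of 29.5%, beside 17.0% ± 11.9 for the UMIs of all genes. Pooled over samples, 22447 of 46303 Hilpda UMIs (48.5%) lay in Arg1-positive cells, and 6665 of 14806 Vegfa UMIs (45.0%). In control samples, where 27.0% of gated cells were Arg1-positive, they held 60.8% of the Hilpda UMIs and 43.6% of the Ldha UMIs. In iKO samples, with 7.03% of the cells, they held 35.0% and 15.8%.

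Neutrophils expressed the module in another balance. Against the monocyte/macrophage gate, 25 of 33 members were higher and 2 lower in neutrophils, against 72.4% of genes called in either direction and 32.4% called higher. The median of all genes was -0.21 and that of the members 0.66. Uptake and upper glycolysis were higher for 8 of 8 genes, led by Pfkfb3 (1.64 ± 0.15) and Hk2 (1.15 ± 0.16), with Slc2a1 at 1.03 ± 0.15. In lower glycolysis 3 of 6 passed, none by over 0.47, and Pgk1 (-0.07 ± 0.14), Tpi1 and Eno1 did not. Ldha was higher by 0.46 ± 0.12 and Slc16a3 by 1.84 ± 0.15.

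Egln3 (2.21 ± 0.23), Hilpda (2.16 ± 0.19), Bnip3l (2.12 ± 0.16), Kdm3a (2.06 ± 0.16), Ddit4 (1.80 ± 0.19), Ero1a (1.50 ± 0.19), Bnip3 (1.47 ± 0.17), Gys1 (1.07 ± 0.22) and Vegfa (0.57 ± 0.20) were also higher in neutrophils. Ndrg1 (-0.76 ± 0.17) and Adm (-1.29 ± 0.53) were lower. The neutrophils of single samples were far apart. Hilpda had 1652, 2241, 393 and 738 CPM in the iKO samples and 859, 3007, 1224 and 1780 in the controls. In both groups there were high and low samples, and the groups overlapped. Neutrophils were shallower (median 3721 to 8771 UMIs per cell, against 13168 to 16247 in the macrophage gate). Their 6 T cell markers were higher than in that gate (summed 101 to 163 against 39.1 to 78.7 CPM). Markers of other lists were higher as well: 3 of 3 regulatory T cell, 2 of 2 CD8, 2 of 3 tested melanoma and 2 of 3 tested dendritic markers, and 1 each of the CD4, NK, B cell, mast, fibroblast and endothelial lists. Another endothelial marker was lower. Of the 4 dissociation genes 2 were higher and 2 lower, with a summed level of 3150 to 7199 against 2463 to 4280 CPM. The part of depth and of these markers in the result was not tested.

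In CD8 T cells the module was low. Against the monocyte/macrophage gate 28 members were lower and 0 higher in CD8 T cells, against 38.5% of genes called lower and 39.4% called higher. Vegfa (-4.84 ± 0.19), Adm (-4.81 ± 0.26), Ndrg1 (-3.76 ± 0.16), Egln3 (-3.35 ± 0.28), Bnip3 (-3.14 ± 0.30), Hk2 (-3.01 ± 0.18) and Slc16a3 (-2.96 ± 0.13) had the largest differences. Gys1 (-2.61 ± 0.13), Hilpda (-2.53 ± 0.27), Ak4 (-2.52 ± 0.19), Slc2a1 (-2.49 ± 0.18) and Ero1a (-2.20 ± 0.20) came next. The glycolytic core differed less, with Pgk1 at -0.89 ± 0.15 and Ldha at -0.58 ± 0.15. Hk1, Pfkp, Pdk1, Bnip3l and Ddit4 did not pass. Ddit4 averaged 38.7 ± 5.27 CPM in CD8 T cells and 40.9 ± 23.9 in the macrophage gate, and 159 ± 29.6 in CD4 T cells.

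Within CD8 T cells, cycling cells (3 or more UMIs of Mki67 and Top2a) were compared with cells that had 0 of these UMIs, in 7 samples, since control 4 had 17 cycling cells and fell below the minimum of 20. Of 29 members tested, 13 were higher and 4 lower in cycling cells, against 52.4% of genes called. Of the 8785 genes tested, 2413 were called higher and 2186 lower. In either direction, members were thus called about as often as all genes. The enzymes of lower glycolysis were higher for 6 of 6: Tpi1 (0.98 ± 0.11), Gapdh (0.65 ± 0.10), Pkm (0.65 ± 0.09), Pgam1 (0.58 ± 0.10), Pgk1 (0.56 ± 0.09) and Eno1 (0.46 ± 0.08). Ldha was higher by 0.85 ± 0.08 and Slc16a3 by 0.59 ± 0.11 as well, and Hk2 by 0.45 ± 0.16 and Higd1a by 0.30 ± 0.08. Kdm3a (-0.64 ± 0.14), Pdk1 (-0.59 ± 0.19), Bnip3l (-0.44 ± 0.08) and Pfkfb3 (-0.43 ± 0.13) were lower. Slc2a1 (-0.12 ± 0.11), Bnip3 (-0.07 ± 0.20), Vegfa (-0.35 ± 0.31), Ero1a (0.17 ± 0.12) and Ddit4 (-0.02 ± 0.12) did not pass. Outside glycolysis, 1 of 12 tested members was higher and 2 were lower. Cycling cells were deeper (median 17286 to 30129 UMIs per cell, against 6945 to 11519). Markers of other cells were lower in cycling cells: 8 of 8 tested monocyte/macrophage markers (summed 144 to 208 in 7 samples against 211 to 370 CPM in 8), Arg1, and 3 of 5 tested neutrophil (84.3 to 274 against 135 to 418 CPM) and 2 of 2 tested dendritic markers. Of 6 T cell markers 5 were lower (4252 to 5903 against 4288 to 7811 CPM), and so were 1 of 2 CD8 markers, 1 tested endothelial marker and 1 of 4 dissociation genes, while 1 mast cell marker was higher. The part of depth and of these markers was not tested.

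**Figure D4:**
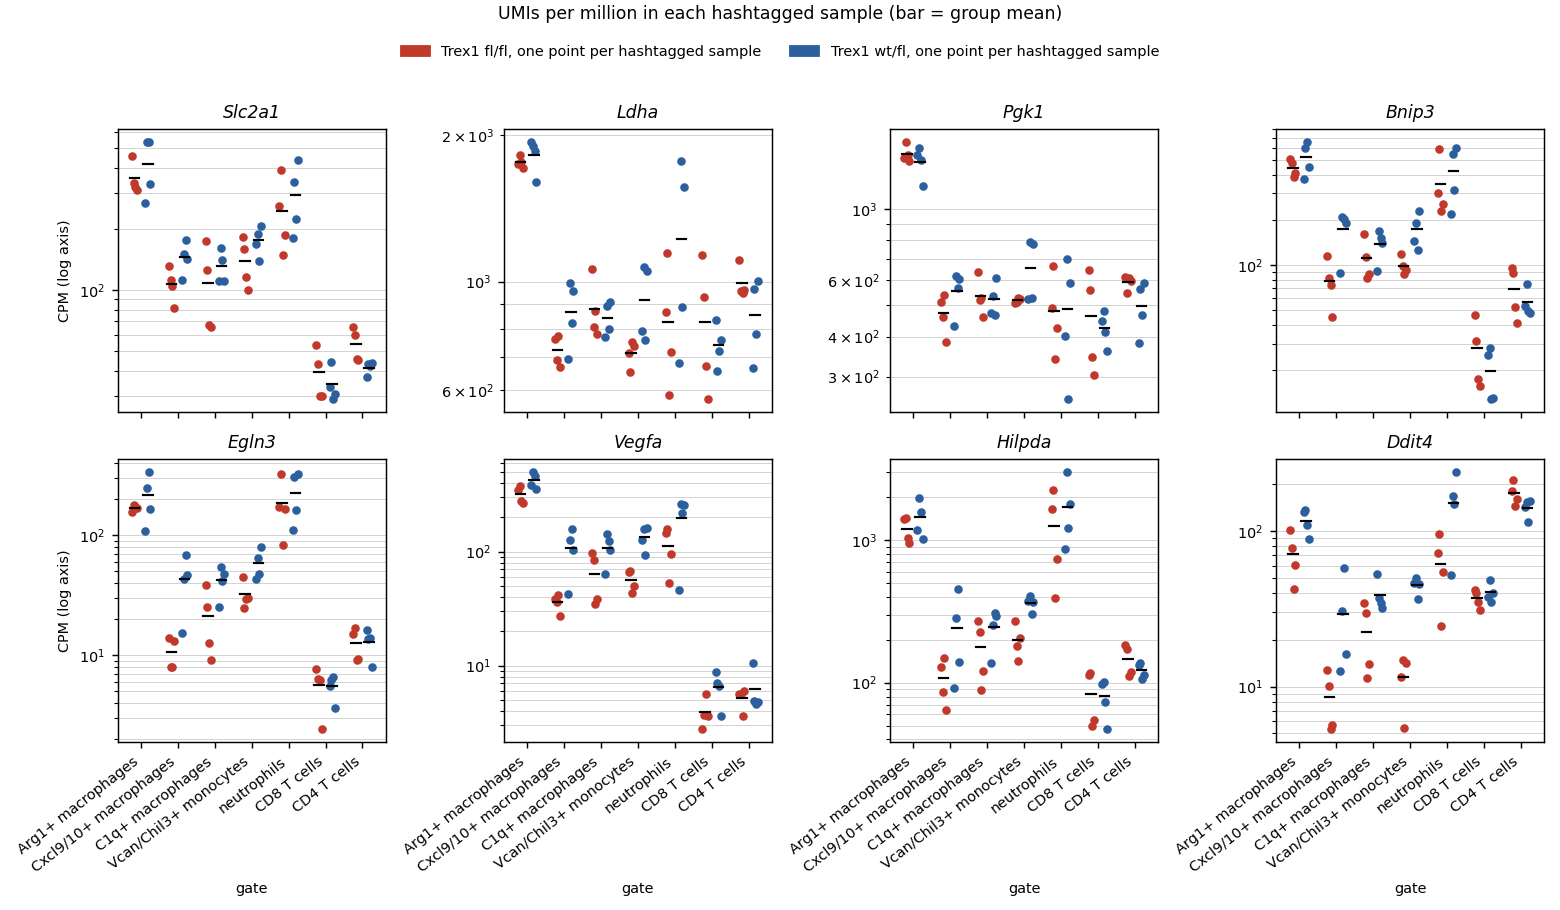
CPM on a log axis (vertical) of 8 members in each sample, by gate (horizontal axis) and genotype, with a bar at each group mean. Hilpda ranges from 952 to 1987 CPM in Arg1-positive macrophages, and its 8 neutrophil values are spread from 393 to 3007.

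The genotypes were then compared. In the whole monocyte/macrophage gate 22 of 33 members were lower in iKO than in control samples and 0 were higher (edgeR quasi-likelihood test, n = 4 each), against 5.95% of the 11571 genes tested called lower and 7.21% called higher. In 19 members the highest iKO sample lay below the lowest control sample, against 6.31% of genes. The member median was -0.57 on the log2 scale, against -0.00 for all genes. Outside glycolysis 14 of 16 fell (median -1.02), and within glycolysis 8 of 17 (median -0.40).

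Ddit4 had 24.8, 21.4, 15.3 and 19.1 CPM in the iKO samples and 54.7, 80.8, 52.2 and 58.8 in the controls. All iKO values lay well below all control values, and the log2 change was -1.64 ± 0.20 (adjusted p = 0.00341). Vegfa had 76.4, 79.9, 72.9 and 68.3 CPM in iKO and 142, 275, 177 and 223 in control samples (-1.50 ± 0.20, adjusted p = 0.00392). Its 4 iKO values were close together and its controls were not, with control 1 lowest. Egln3 had 35.3, 28.9, 38.6 and 34.2 CPM in iKO and 46.3, 129, 100 and 106 in control samples (-1.53 ± 0.26, adjusted p = 0.00951). Hilpda had 284, 256, 241 and 236 against 412, 902, 562 and 596 CPM (-1.33 ± 0.22, adjusted p = 0.00795). In both, control 1 was again nearest to the iKO samples without overlapping them.

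Bnip3 fell by 1.05 ± 0.21 (adjusted p = 0.0150), and Bnip3l by 0.72 ± 0.12, so that the mitochondrial members fell together, 4 of 4 with Ak4 and Higd1a. Ero1a fell by 0.99 ± 0.19 (adjusted p = 0.0127), Ankrd37 by 0.99 ± 0.19, Mxi1 by 0.99 ± 0.14, Ndrg1 by 1.19 ± 0.29 and Gys1 by 0.83 ± 0.18. Adm changed most, by -2.40 ± 0.51 (adjusted p = 0.0180), at 3.65 to 4.75 CPM in iKO samples and 4.32, 41.7, 25.6 and 19.3 in controls. Control 1 lay among the iKO samples for Adm.

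Among the glycolysis genes changes were smaller. Slc2a1 had 171, 142, 124 and 109 CPM in iKO and 166, 302, 222 and 226 in control samples, which overlapped at control 1, and fell by 0.79 ± 0.21 (adjusted p = 0.0362). Hk2 fell by 0.76 ± 0.19 (adjusted p = 0.0298), Pdk1 by 0.67 ± 0.17 and Gpi1 by 0.51 ± 0.12. Ldha had 859, 795, 895 and 840 CPM against 966, 1297, 987 and 1226, with no overlap, and fell by 0.45 ± 0.11 (adjusted p = 0.0307). Pgk1 fell by 0.50 ± 0.13 (adjusted p = 0.0370), Gapdh by 0.47 ± 0.12 and Pgam1 by 0.40 ± 0.10. Pfkp (0.00 ± 0.19), Pkm (0.01 ± 0.11), Eno1 (-0.05 ± 0.11) and Slc16a3 (-0.09 ± 0.23) were among the 11 members that did not pass. These calls depended on single samples: without control 4 the count of lower members was 9, without iKO 2 it was 10, without control 2 it was 12, and without control 1 it was 23. Under every alternative tried, Bnip3l, Egln3, Vegfa, Hilpda, Ankrd37, Mxi1 and Ddit4 kept their call.

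Other values moved with the genotype in the gate, and their part in the result was not tested. Arg1 itself was lower in iKO samples, by 2.07 ± 0.36 on the log2 scale. Of 8 neutrophil markers 5 were lower (summed 202 to 218 against 326 to 474 CPM), and of the 4 dissociation genes 4 were lower (2463 to 3031 against 3586 to 4280). Of 6 T cell markers 3 were higher (65.9 to 78.7 against 39.1 to 51.5 CPM), and 0 of 4 melanoma markers tested were called (13.6 to 16.6 against 4.97 to 11.9). Of 10 monocyte/macrophage markers 3 were higher and 1 lower. Higher as well were 2 of 2 CD8, 1 of 4 monocyte, 1 of 2 Cxcl9/Cxcl10, 1 of 3 endothelial and the 1 tested NK marker. Lower were 2 of 5 tested dendritic, 1 of 3 regulatory T cell and 1 of 2 tested B cell markers.

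A sum over the gate mixes the number of Arg1-positive cells with the RNA of each cell. Arg1-positive macrophages made up 4.87, 6.95, 9.73 and 8.91% of the gate in the iKO samples and 14.8, 32.8, 16.4 and 35.5% in the controls. The groups did not overlap, and the means were 7.61% ± 2.17 and 24.9% ± 10.8 (SD, n = 4 each; two-sided exact permutation test, p = 0.0286, the smallest that 4 against 4 allows; adjusted p = 0.0857 over 6 subsets). Cxcl9/Cxcl10-positive macrophages made up 44.5, 36.0, 13.3 and 12.9% in iKO and 20.0, 7.92, 5.80 and 7.26% in control samples (exact permutation p = 0.143, adjusted p = 0.286). Macrophages in no subset made up 18.1, 21.5, 23.7 and 19.7% in iKO and 7.88, 13.1, 13.3 and 10.7% in control samples, again with no overlap (exact permutation p = 0.0286, adjusted p = 0.0857). Once the Arg1-positive cells were left out of the gate, 11 members were still lower in iKO samples, an alternative chosen after seeing the data. They were Bnip3, Bnip3l, Egln3, Ero1a, Vegfa, Hilpda, Adm, Ankrd37, Higd1a, Mxi1 and Ddit4, and Vegfa (-1.39 ± 0.20), Egln3 (-1.42 ± 0.25) and Ddit4 (-1.46 ± 0.20) had nearly the values of the whole gate. Slc2a1 (-0.50), Hk2 (-0.62) and Ldha (-0.28) no longer passed. In cells with 0 Arg1 UMIs, 10 members were lower, among them Vegfa (-1.32 ± 0.25), Hilpda (-1.06 ± 0.21) and Ddit4 (-1.33 ± 0.23).

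Within subsets the comparison gave unlike counts. In Arg1-positive macrophages 0 of 33 members were called by edgeR, against 2.36% of genes called, with 5 members at an unadjusted p under 0.05 and 0 by DESeq2. Vegfa differed by -0.43 ± 0.17 (adjusted p = 0.215) and Ddit4 by -0.72 ± 0.25 (adjusted p = 0.166), and Slc2a1 (-0.24 ± 0.23), Hilpda (-0.27 ± 0.23), Ldha (-0.07 ± 0.11) and Pgk1 (0.06 ± 0.13) did not pass. In C1q-positive macrophages 1 member fell, Bnip3l by 0.60 ± 0.14 (adjusted p = 0.0480), against 1.35% of genes called lower. That call was lost without iKO 2, iKO 4, control 2, control 3 or control 4. For most members iKO 1 and iKO 2 lay above iKO 3 and iKO 4 there, as for Hilpda, with 270, 227, 88.2 and 121 CPM. The genotype effect in Arg1-positive minus that in C1q-positive macrophages was called for 0 members and 0 genes by edgeR (lowest adjusted p of a member 0.8294), with 3 members and 518 genes at an unadjusted p under 0.05 and 0 members by DESeq2.

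In Cxcl9/Cxcl10-positive macrophages 10 of 31 tested members fell, against 3.63% of genes called lower. Egln3 had 13.9, 8.02, 7.98 and 13.1 CPM in iKO and 15.3, 43.3, 68.7 and 46.3 in control samples, which did not overlap (-1.87 ± 0.38, adjusted p = 0.0150). Vegfa (-1.56 ± 0.32), Ndrg1 (-1.39 ± 0.34), Ero1a (-1.28 ± 0.22), Bnip3 (-1.13 ± 0.30), Ankrd37 (-1.05 ± 0.20), Hk2 (-0.96 ± 0.22), Mxi1 (-0.92 ± 0.24), Higd1a (-0.65 ± 0.13) and Bnip3l (-0.64 ± 0.17) fell as well. The count was 3 without control 4, 4 without iKO 2 or control 2, 6 without iKO 1 or control 3, and 15 without control 1, and Ero1a and Ankrd37 kept their call throughout. In this subset 2 of 2 CD8 markers were higher in iKO samples (summed 18.8 to 23.5 against 4.03 to 7.92 CPM). Of 4 tested neutrophil markers 2 were lower and 1 higher (169 to 198 against 262 to 519 CPM), and of 10 monocyte/macrophage markers 3 were lower and 1 higher (12579 to 14639 against 12015 to 19392 CPM). The part of these markers was not tested.

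In Vcan/Chil3-positive monocytes 13 of 32 tested members fell, against 4.29% of genes called lower. Ddit4 had 11.6, 14.8, 5.37 and 14.3 CPM in iKO and 46.5, 49.9, 36.8 and 45.8 in control samples, which did not overlap (-1.96 ± 0.24, adjusted p = 0.000438). Vegfa had 65.9, 67.7, 43.6 and 50.3 against 127, 158, 92.8 and 160 CPM (-1.30 ± 0.20, adjusted p = 0.00223). Egln3 (-0.94 ± 0.23), Hilpda (-0.92 ± 0.18), Bnip3 (-0.87 ± 0.19), Gys1 (-0.82 ± 0.18), Ankrd37 (-0.80 ± 0.16), Pdk1 (-0.65 ± 0.18), Higd1a (-0.45 ± 0.11), Bnip3l (-0.44 ± 0.08), Ldha (-0.43 ± 0.12), Gapdh (-0.39 ± 0.11) and Pgam1 (-0.37 ± 0.10) fell as well. The count was 6 without control 4, 7 without iKO 2, and 8 without iKO 3, iKO 4 or control 2. In this subset 3 of 6 tested neutrophil markers (summed 221 to 262 in iKO against 360 to 564 CPM in control samples), 2 of 4 dissociation genes (2544 to 3288 against 4099 to 4707 CPM) and Arg1 (5.57 to 9.47 against 13.7 to 20.1 CPM) were lower in iKO samples. Higher were 2 of 6 T cell markers (70.5 to 78.8 against 42.6 to 54.8 CPM), 2 of 2 CD8 markers (19.3 to 28.5 against 4.02 to 8.35 CPM) and the 1 tested melanoma marker (7.89 to 11.5 against 2.00 to 5.07 CPM for the list of 5). Of 10 monocyte/macrophage markers 1 was higher and 2 lower. The part of these markers was not tested. Bnip3, Bnip3l, Egln3, Vegfa, Ankrd37 and Higd1a fell both here and in Cxcl9/Cxcl10-positive macrophages, and the 17 members that fell in either subset were all among the 22 of the whole gate.

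**Figure D5:**
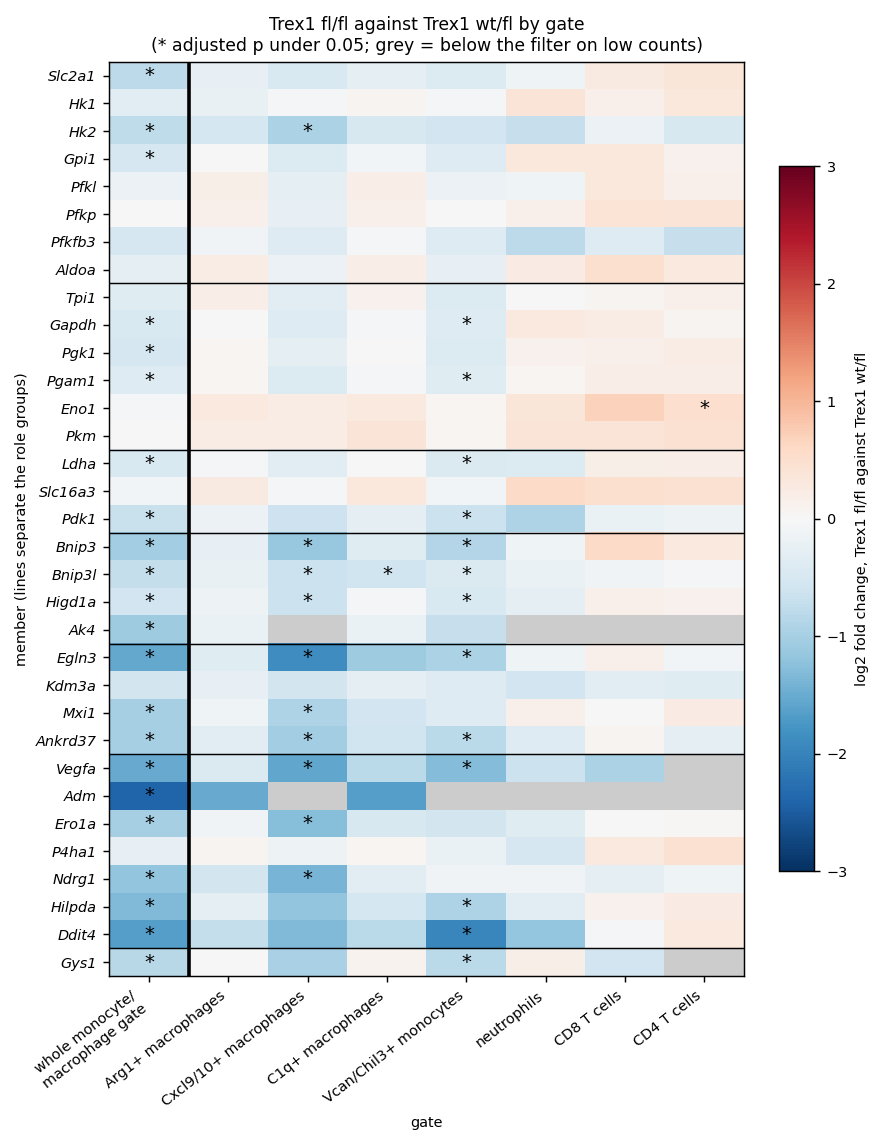
Heat map of the log2 change, iKO against control, of the 33 members (vertical axis) in 8 gates (horizontal axis). A star marks an adjusted p under 0.05 and grey a gene below the count filter: 22 stars lie in the whole macrophage gate, 10 and 13 in Cxcl9/Cxcl10-positive macrophages and monocytes, 1 each in C1q-positive macrophages and CD4 T cells, and 0 elsewhere.

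In neutrophils 0 of 31 tested members were called between genotypes by edgeR, against 2.22% of genes, with 4 at an unadjusted p under 0.05 and 0 by DESeq2. Ddit4 differed by -1.16 ± 0.42 (adjusted p = 0.237), Hilpda by -0.32 ± 0.46 and Slc2a1 by -0.12 ± 0.31. The iKO samples held 32 to 106 neutrophils and the controls 191 to 376. The genotype effect in neutrophils minus that in the macrophage gate was called for 0 members, against 0.157% of genes called, with 16 at an unadjusted p under 0.05 and 6 by DESeq2. Ndrg1 (1.08 ± 0.26, adjusted p = 0.0749), Mxi1 (1.07 ± 0.25, adjusted p = 0.0705) and Adm (3.61 ± 0.81, adjusted p = 0.0630) were nearest to the threshold. Without control 1 the count was 3, and without iKO 2, iKO 3 or iKO 4 it was 1.

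In CD8 T cells 0 of 31 tested members were called by edgeR, against 3.45% of genes, with 6 at an unadjusted p under 0.05 and 1 by DESeq2. Eno1, enolase, differed by 0.69 ± 0.18 (adjusted p = 0.0761), with 677, 582, 403 and 373 CPM in iKO and 365, 343, 287 and 294 in control samples. In CD4 T cells 1 of 29 members rose, against 2.50% of genes called higher: Eno1, by 0.50 ± 0.12 (adjusted p = 0.0364), with 625, 510, 547 and 604 against 359, 432, 328 and 465 CPM. Reads of Eno1 may be shared with its near-identical copy Eno1b, which had 2672 UMIs against 182421, so this value is uncertain. The call of Eno1 was lost with higher gate thresholds, and the count of members was 0 without iKO 1, iKO 4, control 1, control 2 or control 3 and 2 without iKO 3 or control 4. Foxp3 UMIs were found in 35.9 to 59.9% of iKO and 21.9 to 36.3% of control CD4 T cells, and the part of that difference was not tested.

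Tested directly, the genotype effect in CD8 T cells was above that in the macrophage gate for 2 members, against 0.0792% of genes called higher. For Ddit4 the difference was 1.59 ± 0.15 (adjusted p = 0.00193): CD8 T cells had 42.0, 40.2, 35.1 and 31.2 CPM in iKO and 37.8, 48.5, 35.2 and 40.0 in control samples, which overlapped, beside the separated values of the macrophage gate. For Slc2a1 it was 1.02 ± 0.17 (adjusted p = 0.0449), with 53.8, 43.1, 30.1 and 30.0 CPM in iKO and 33.2, 44.3, 29.0 and 30.5 in control CD8 T cells. For the other 31 members the difference was above 0 and did not pass. Only the call of Ddit4 held under every alternative: the count was 1 without iKO 1, iKO 2, control 2, control 3 or control 4, 3 without iKO 4 and 5 without control 1. By DESeq2 the count was 10, and with no filter on low counts it was 6.

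Other genes of the pathway were read from lists of regulators, further glycolysis genes and further hypoxia-responsive genes. Egln1 was in both the list of regulators and that of hypoxia-responsive genes, and is counted in each. In Arg1-positive against C1q-positive macrophages, 5 of 7 tested regulators were higher, against 20.9% of genes called higher and 20.6% called lower, among them Egln1 (1.63), the main oxygen sensor, and Hif1a (0.89). Of the other hypoxia-responsive genes 20 of 29 tested were higher and 3 lower, led by Plod2 (3.33), a collagen lysyl hydroxylase, and the metallothionein Mt2 (2.70). Of 14 other glycolysis genes tested 6 were higher, including the glucose transporter Slc2a3 (1.41), and 3 lower, the latter a share near that of all genes. In neutrophils Slc2a3 stood far above macrophages, at 328 ± 82.5 CPM against 4.47 to 11.8 in the macrophage subsets (6.42 ± 0.22 on the log2 scale against the whole gate). Between genotypes in the macrophage gate 13 of 29 other hypoxia-responsive genes were lower, against 5.95% of genes, among them Mt1 (-1.30) and Bhlhe40 (-1.10), while Hif1a was not called and Egln1 fell by 0.74. Of 17 other glycolysis genes 2 were higher, against 7.21% of genes, and 3 lower, the latter being Ldhb (-1.09), Slc2a3 (-1.08) and Gbe1 (-1.05), a glycogen branching enzyme. The log2 changes of these 17 genes ran from -1.09 to 2.16, so that the largest change was a rise.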

How the data were processed

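The deposited values are raw UMI counts, 1 matrix of genes by barcodes for each hashtagged sample. Per the file headers the authors made them with Cell Ranger 7.1.0, and per the submitters' processing notes on the build GRCm39. The assignment of barcodes to hashtags is not described in those sources. The members and all gene lists were chosen with earlier results of these data known, and the gate thresholds after seeing marker counts but not member values.

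Hashtags and spike-ins were left out. Of 23731 barcodes, cells with at least 300 genes and at most 10% mitochondrial UMIs were kept (22490), and 439 with a Scrublet score over 0.25 (1.95%, scanpy 1.11.5, expected rate 0.06) were removed as doublets, which left 22051. The monocyte/macrophage gate required 5 or more UMIs summed over 5 marker genes (Csf1r, Fcgr1, Adgre1, Ms4a7 and 1 that is not reported here) and few of T cell, B cell, dendritic and neutrophil markers. Within it, Arg1-positive cells had 3 or more Arg1 UMIs and fewer than 10 of Cxcl9 and Cxcl10, and Cxcl9/Cxcl10-positive cells the reverse. Of the rest, C1q-positive cells had 5 or more UMIs of C1qa, C1qb and C1qc, and monocytes fewer of these and 3 or more of Vcan and Chil3. Neutrophils had 50 or more UMIs of S100a8 and S100a9, and T cells 3 or more of Cd3d, Cd3e and Cd3g.

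Counts were summed per sample and gate (at least 20 cells) and fitted with edgeR 4.0.16 in R 4.3.3 (TMM, filterByExpr, quasi-likelihood test). P-values were adjusted by Benjamini-Hochberg over all genes tested, with a threshold of 0.05. Contrasts between gates had the sample as a block, and a gate-by-group term tested differences of genotype effects. SEs were derived from the log2 fold change and its F statistic. Subset shares were compared by an exact permutation test (scipy 1.17.1). DESeq2 1.42.0, no count filter, other thresholds, thinned gating, doublets kept, the replicate number as a block and leaving out each sample were the alternatives. Full values were given for called members, up to 12 per comparison by size, and always for Slc2a1, Hk2, Ldha, Pgk1, Bnip3, Egln3, Ero1a, Ddit4 and Vegfa. The fits were tested on simulated data. Aldoa had 2 feature IDs, and the one with nearly all UMIs was used. Replicates were compared by chi-square and none was a duplicate. Per degree of freedom, iKO 3 and iKO 4 were the closest pair (7.62), and iKO 1 and iKO 2 stood at 23.7. The other iKO pairs ran from 94.9 to 214, and the control pairs from 20.5 to 96.0. Whether samples of a close pair came from the same mouse is not stated.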

Additional observations from a re-analysis of the deposited data

Results flagged for a closer look

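In 194 groups of 4 samples, 5 held a sample far from the other 3 by Dixon's test, which chance does in about 1 of 20 groups. In the monocyte/macrophage gate, Gapdh had 2634 CPM in iKO 2, against 2791 to 2812 in the other iKO samples. Ero1a had 486 CPM in the Arg1-positive macrophages of iKO 4, against 627 to 643 in the others. It had 874 CPM in the neutrophils of iKO 2, against 249 to 321. Bnip3 had 89.3 CPM in the Cxcl9/Cxcl10-positive macrophages of control 1, against 191 to 208 in the other controls. Control 1 also had 20.0% of its gated macrophages in the Cxcl9/Cxcl10-positive subset, against 5.80 to 7.92% in the other controls.

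The genotype effect differed between CD8 T cells and the monocyte/macrophage gate for Ddit4, by 1.59 on the log2 scale, and for Slc2a1, by 1.02, each tested with a gate-by-group term in edgeR.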

How the results depend on the processing

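All members called between Arg1-positive and C1q-positive (33) or Cxcl9/Cxcl10-positive macrophages (32), and between CD8 T cells and the macrophage gate (28), kept their call under every alternative run, and 0 named genes reversed. Leaving out 1 sample at a time gave these ranges of called members. Between genotypes they were 9 to 23 in the macrophage gate, 0 to 1 in Arg1-positive, 3 to 15 in Cxcl9/Cxcl10-positive and 0 to 1 in C1q-positive macrophages, 6 to 17 in monocytes, 0 to 1 in neutrophils and CD8 T cells and 0 to 2 in CD4 T cells. Between gates they were 33 to 33 for Arg1-positive against C1q-positive, 32 to 32 against Cxcl9/Cxcl10-positive, 4 to 8 for Cxcl9/Cxcl10-positive against C1q-positive macrophages, 10 to 17 for monocytes, 26 to 28 for neutrophils, 28 to 30 for CD8 T cells and 13 to 17 for cycling cells. For differences of genotype effects they were 0 to 3 (neutrophils), 1 to 5 (CD8 T cells) and 0 to 0 (Arg1-positive minus C1q-positive). Differences in subset shares ran from -20.6 to -13.7 points (Arg1-positive), 10.5 to 21.0 (Cxcl9/Cxcl10-positive), -6.98 to -2.61 (C1q-positive), -7.46 to -0.615 (monocytes), -0.188 to 0.392 (double-positive) and 8.37 to 10.4 (no subset). The double-positive share reversed to -0.0930 with thinned gating and -0.168 with higher thresholds.

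Counts between genotypes moved as follows. The macrophage gate had 11 without Arg1-positive cells and 10 with 0 Arg1 UMIs. Arg1-positive macrophages had 1 with no filter and 1 with thinned gating, and C1q-positive ones 2 by DESeq2, 2 with no filter, 0 with higher thresholds and 0 with thinned gating. Neutrophils had 2 with no filter, CD8 T cells 1 by DESeq2, and CD4 T cells 2 by DESeq2, 4 with no filter, 0 with higher thresholds and 2 with doublets kept. Cxcl9/Cxcl10-positive against C1q-positive macrophages had 11 with no filter. The neutrophil difference had 6 by DESeq2, 7 with no filter and 3 with higher thresholds, that of CD8 T cells 10 by DESeq2 and 6 with no filter, and that of Arg1-positive minus C1q-positive 1 with no filter. The cause of these shifts was not tested.

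With the replicate number as a block, the counts were 1 in Arg1-positive, 0 in C1q-positive macrophages, 8 in monocytes, 3 in CD8 T cells and 18 in the macrophage gate. Same-numbered samples correlated at 0.229, -0.137, -0.0346 and 0.208, and 2 of 4 numbers correlated best with their own. These few values cannot tell whether same-numbered samples share more than a number. Without the block of the sample, contrasts with C1q-positive macrophages gave 3 for Cxcl9/Cxcl10-positive macrophages and 6 for monocytes. Median depth was lowest in neutrophils (3721 UMIs per cell in the shallowest sample), and genotype cannot be told apart from pool.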
